A study of Mus musculus with 2 samples.

Results

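The replication-dependent histone genes were described through the 54 distinct regions of open chromatin, of 69549 in all, whose closest gene carries a symbol beginning with Hist1h, Hist2h, Hist3h or Hist4h. These regions name 42 histone genes. Of them, 41 regions at 39 genes are promoter regions, with a centre within 1000 bp of the transcription start site (TSS) given by the authors, out of 14387 promoter regions in all. The other 13 lie farther from the TSS. The set was chosen by its read counts in the same libraries that are compared here, so every ratio between the libraries is a description and carries no test.

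ATAC-seq uses the Tn5 transposase, which inserts sequencing adaptors into accessible DNA, so that reads pile up over open chromatin. Livers of C57BL/6 mice on normal chow were taken at 8 weeks of age, and samples from 4 mice per group were pooled into 1 library. The control group was *Mettl3* flox/flox, in which both alleles of the m6A methyltransferase gene *Mettl3* are flanked by loxP sites but intact. The other group was *Mettl3* HKO (*Mettl3* flox/flox Alb-Cre+/-), in which the albumin promoter drives Cre in hepatocytes, so the other cell types of the liver are not targeted. Both groups carry the floxed alleles, and the labels name no Cre in the control mice. The 2 libraries are called the control and the knockout library below. Since each group is a single pool, no spread between mice could be measured, and the intervals given are 95% Clopper-Pearson intervals that cover counting error only.

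The nucleosome is built from the core histones H2A, H2B, H3 and H4, and the linker histone H1 binds where DNA enters and leaves it. The replication-dependent genes supply these proteins in S phase. They lack introns, their mRNAs end in a stem-loop instead of a poly(A) tail, and many H2A and H2B genes lie head to head and share a promoter. They are grouped in clusters, of which Hist1 on mouse chromosome 13 is the largest, followed by Hist2 on chromosome 3, with few genes in Hist3 on chromosome 11 and Hist4 on chromosome 6. Most hepatocytes of an adult liver do not divide, and the genes are usually studied in dividing cells.

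RefSeq promoter windows on GRCm38.p6, which run from 250 bases before the start to 50 bases after it, were held for 62 of 70 RefSeq histone genes of these clusters, in 63 windows. To show what these promoters look like, 150 bases around the start, from position -130 to 19 with the start base at 0, are printed for 7 genes: 4 whose regions had some of the highest ratios, and 3 whose regions differed less. Capitals mark exact matches, on either strand, to the CCAAT box (CCAAT), to the TATA box (TATAAA), to the octamer of H2A and H2B promoters (ATTTGCAT), to the AC box of H1 promoters (AAACACA), and to GGTCCG, an element of H4 promoters that was added after the H4 windows had been read.

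*Hist1h1b* is on the minus strand at chr13:21780606-21780755, and *Hist1h1d* on the plus strand at chr13:23554902-23555051. Both encode linker histones and hold an AC box far upstream, a CCAAT box and a TATA box.
Hist1h1b: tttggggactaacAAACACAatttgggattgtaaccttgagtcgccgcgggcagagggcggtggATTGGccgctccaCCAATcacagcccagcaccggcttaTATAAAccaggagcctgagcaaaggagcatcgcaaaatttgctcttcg
Hist1h1d: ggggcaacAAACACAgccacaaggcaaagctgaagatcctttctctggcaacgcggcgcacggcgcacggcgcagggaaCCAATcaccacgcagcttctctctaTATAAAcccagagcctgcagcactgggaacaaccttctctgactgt

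*Hist1h4f* is on the minus strand at chr13:23551649-23551798, *Hist1h4b* on the plus strand at chr13:23756807-23756956 and *Hist1h4h* on the plus strand at chr13:23530914-23531063. All encode histone H4 and hold the GGTCCG element within 50 bases of the annotated start. The first pair had low signal in the control library and the third had high signal.
Hist1h4f: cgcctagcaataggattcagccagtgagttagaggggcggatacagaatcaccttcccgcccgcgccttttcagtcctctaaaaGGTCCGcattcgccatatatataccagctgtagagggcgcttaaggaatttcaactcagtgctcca
Hist1h4b: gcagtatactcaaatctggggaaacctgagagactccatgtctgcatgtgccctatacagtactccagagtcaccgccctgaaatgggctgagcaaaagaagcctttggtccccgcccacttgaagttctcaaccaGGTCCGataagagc
Hist1h4h: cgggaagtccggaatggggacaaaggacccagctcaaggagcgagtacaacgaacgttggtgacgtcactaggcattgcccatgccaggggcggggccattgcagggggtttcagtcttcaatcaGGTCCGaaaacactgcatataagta

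*Hist1h2bg*, on the plus strand at chr13:23571270-23571419, encodes an H2B and lies in the region shared with its divergent partner *Hist1h2ae*. It holds the octamer and a TATA box. *Hist1h2an*, on the minus strand at chr13:21787229-21787378, encodes an H2A, holds a CCAAT box on each strand, and had the lowest ratio of the histone promoters.
Hist1h2bg: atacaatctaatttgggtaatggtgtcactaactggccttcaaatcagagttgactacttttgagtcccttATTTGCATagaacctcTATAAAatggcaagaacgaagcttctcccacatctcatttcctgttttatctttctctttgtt
Hist1h2an: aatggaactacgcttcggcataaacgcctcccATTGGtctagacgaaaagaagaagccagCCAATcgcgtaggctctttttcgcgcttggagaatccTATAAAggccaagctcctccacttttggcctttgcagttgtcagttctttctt

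Over the whole windows, the CCAAT box was found in 85.7% of the histone windows and in 37.4% of all 32851 RefSeq windows of the same length. All H1, H2A, H2B and H3 windows held it, and 3 of 12 H4 windows did. The TATA box was in 55.6% of histone windows and 13.6% of all windows. The octamer was in 7 of 18 H2A and 7 of 17 H2B windows, in no H1, H3 or H4 window, and in 1.74% of all windows. For the AC box the counts were 5 of 6 H1 windows and 9 of all 63, against 7.18% of all windows. The GGTCCG element was in 11 of 12 H4 windows and in 8.25% of all windows. The histone windows had a median GC content of 45.3%, lower than the 52.7% of all windows. A match describes letters only, none of the motifs is contained in another, and no relation of a motif to the signal was tested.

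The control library had a total of 52826209 reads and the knockout library 58038309, of which 31.7% and 22.3% lay in regions. The log2 ratio of knockout over control counts, with 1 read added to each count and the authors' totals, had a median of -0.38 over all regions and -0.56 over all promoter regions, so most promoters had a lower value in the knockout library. Each histone promoter was therefore also set beside the 1000 non-histone promoter regions nearest to it in mean RPM (reads scaled by the library total, averaged over both libraries), and the difference from their median log2 ratio is called the same-signal difference. It barely depends on how the libraries are scaled: its median over the histone promoters, 0.81, was 0.80 with totals of the reads in regions. The promoter of *Mettl3* itself had 566 and 392 reads, which does not check the deletion of its exons.

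In the control library, the histone promoters were of ordinary strength. The deposited fold enrichment, reads per base in the region over reads per base in the genome, had a median of 22.6 over the 41 regions, with a range from 4.15 to 50.8. The median of the other 14346 promoter regions was 25.8. The median histone promoter stood at the 44.2 percentile of all promoters by this measure in the control library. In the knockout library it stood at the 72.6 percentile, where the histone median was 26.0 and that of the other promoters 16.7. In 37 of the 41 regions the peak summit nearest to the TSS lay within 200 bp of it, with a median at -31 bp, and the same held for 76.0% of other promoters, with a median at -26 bp.

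The 41 histone promoters together held 17732 reads in the control library and 21097 in the knockout library, a pooled log2 ratio of 0.11 (0.086 to 0.14). The 41 log2 ratios ran from -0.53 to 1.36 around a median of 0.16. A log2 ratio above 0 was found in 27 of 41, where 16.1% of all promoter regions had one. The interval lay above 0 in 21 histone promoters and below 0 in 7, beside 8.08% and 72.4% of all promoters. At least 2-fold higher in the knockout library were 6 histone promoters and at least 2-fold lower were 0, where 4.07% and 16.3% of all promoters were. The 6 depends on the processing: it was 12 with ratios centred on the median of all regions. In the upper 50% of mean RPM it was 1, and the median log2 ratio there was -0.012. The share of all promoters was not computed under these settings. The same-signal difference was above 0 in 41 of 41, between 0.14 and 1.93 with a median of 0.81, beside 50.5% of all promoters. It reached 1, which is 2-fold, in 15, beside 5.26% of all promoters. Since the genes were picked with these ratios known, the shares describe how far the set departs from other promoters and are no evidence for a departure.

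**Figure D1:**
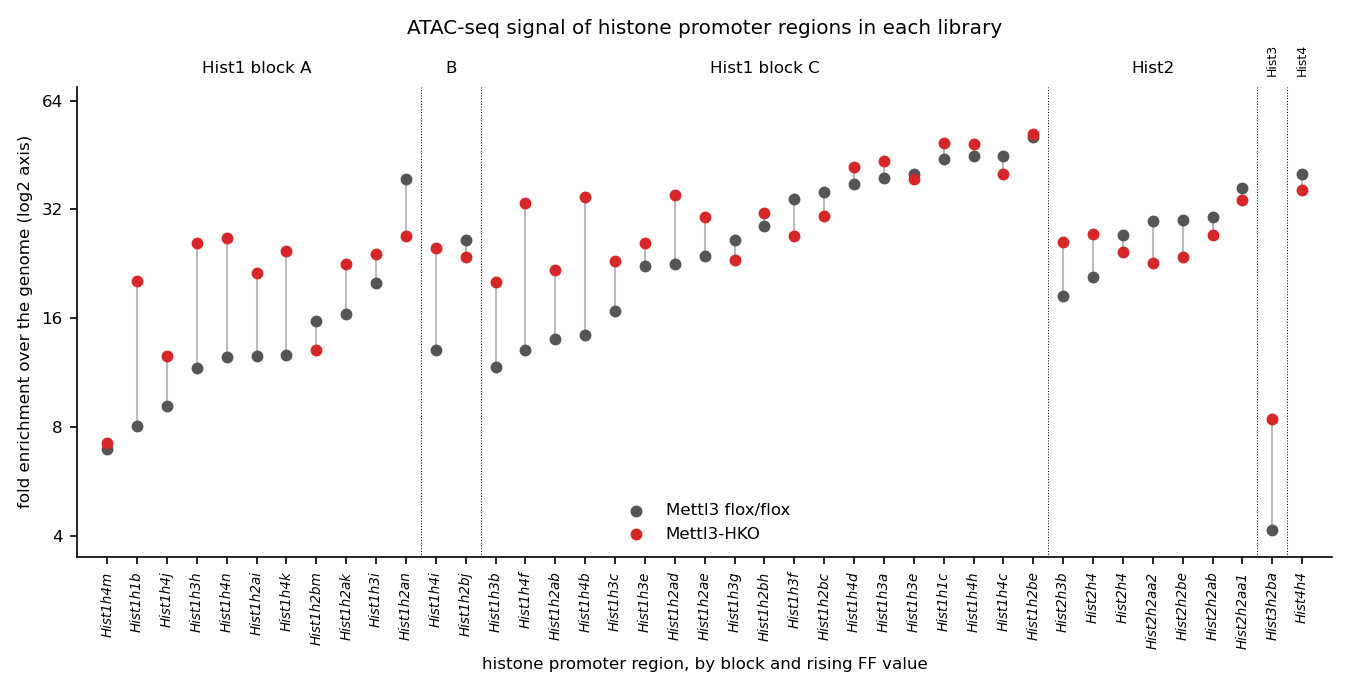
Fold enrichment over the genome (log2 axis) of the 41 histone promoter regions, 1 grey point for the control library (*Mettl3* flox/flox) and 1 red point for the knockout library (*Mettl3*-HKO), ordered by cluster, block and rising control value. The grey points spread from 4.15 to 50.8 and the red points from 7.21 to 51.8, and the longest upward gaps are at regions that were low in the control library.

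**Figure D2:**
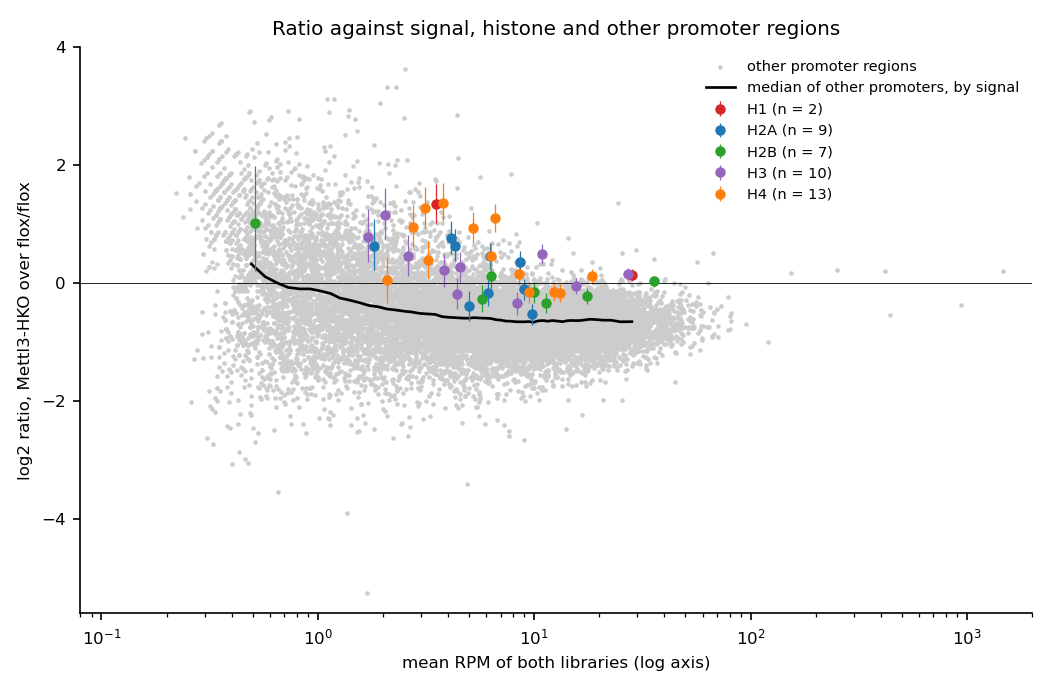
Log2 ratio of knockout over control against the mean RPM of both libraries (log axis) for all other promoter regions (grey, with a running median in black) and for the 41 histone promoter regions, coloured by type with 95% intervals of counting error. Every histone point within the span of the black line lies above it, and the 5 highest lie between 2 and 7 RPM.

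The histone promoters were also set out by their enrichment in the control library. That value is the denominator of the ratio and the limits were set after the values were seen, so the order of the classes is a description only. The 13 histone promoters with under 15-fold enrichment in the control library, 12 of Hist1 and 1 of Hist3, had a median enrichment of 12.5 in the control library and 21.8 in the knockout library. Their pooled counts were 1590 and 3286, and their median log2 ratio was 0.96. The 4335 other promoters in that class had medians of 8.18 and 7.45 and a median log2 ratio of -0.091. In the class from 15-fold to 30-fold, 15 histone promoters had a median log2 ratio of 0.21 and 3869 other promoters -0.59. With 30-fold or more, the medians were -0.11 over 13 histone promoters and -0.68 over 6142 others. A low control value leans the ratio upward in any set, and the other promoters also had higher ratios in the lower classes. In the lowest class, 6 of the 13 histone promoters had a peak only in the knockout library and so entered the table through it. The SD of log2 enrichment over the 41 histone promoters was 0.85 in the control library and 0.60 in the knockout library, and over the other promoters 1.29 and 1.07.

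A peak was called in both libraries at 34 histone promoters, only in the knockout library at 7, and only in the control library at 0. Of all promoter regions, 8.4% had a peak only in the knockout library and 8.26% only in the control library. The 7 regions were those of *Hist1h1b*, *Hist1h3h*, *Hist1h3c*, *Hist1h2ab*, *Hist1h3b* and *Hist1h4b* in Hist1 and of *Hist3h2ba*, and they held 538 reads in the control library and 1174 in the knockout library. A peak only in the knockout library selects for higher knockout counts, so these sums are a description only.

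The Hist1 cluster on chromosome 13 gave 32 of the 41 promoter regions. They held 14079 and 17243 reads, a pooled log2 ratio of 0.16 (0.12 to 0.19), with a median same-signal difference of 0.84. The 581 non-histone promoters of chromosome 13 had a median log2 ratio of -0.62 and a median same-signal difference of -0.052. Split where neighbouring histone regions were over 150 kb apart, the cluster fell into blocks A, B and C along the chromosome. Block A (chr13:21709983-21848179) had 11 promoter regions with a median same-signal difference of 1.06, of which 7 were under 15-fold enrichment in the control library. Block B (chr13:22040814-22043663) had 2, and block C (chr13:23530812-23762806) had 19 with a median difference of 0.79, of which 4 were under 15-fold.

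The highest ratios were at H4, H1 and H3 genes. *Hist1h4f*, an H4 gene, had 111 reads in the control library and 314 in the knockout library, a log2 ratio of 1.36 (1.05 to 1.69). The H1 gene *Hist1h1b* had 105 and 292 reads, a log2 ratio of 1.33 (1.01 to 1.68). For *Hist1h4b*, another H4 gene, the counts were 96 and 255 and the log2 ratio 1.26 (0.93 to 1.63). *Hist1h3h*, an H3 gene, had 66 and 163 reads and a log2 ratio of 1.16 (0.75 to 1.60). All of these rested on fewer than 120 control reads and were picked for their ratios, and the regions of *Hist1h1b*, *Hist1h4b* and *Hist1h3h* had a peak only in the knockout library. *Hist1h4n*, an H4 gene, had 222 and 522 reads and a log2 ratio of 1.09 (0.87 to 1.33), but 94.0% of the 50-base words in its RefSeq window also occur in the window of *Hist1h4m*, and what the mapping quality filter of the authors did to reads of the pair was not tested.

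The strongest Hist1 promoters changed little on the authors' scale while promoters of like signal were lower. The region of *Hist1h2be*, which also covers the start of the H1 gene *Hist1h1e*, had 1865 and 2089 reads, an enrichment of 50.8 and 51.8, and a log2 ratio of 0.028 (-0.063 to 0.12). Its same-signal difference was 0.68. The H1 gene *Hist1h1c* had 1416 and 1714 reads, a log2 ratio of 0.14 and a difference of 0.79. The region of *Hist1h3a*, which covers the start of *Hist1h4a*, had 1362 and 1669 reads, with 0.16 and 0.81 for the same quantities. *Hist1h4h*, an H4 gene, had 942 and 1119 reads, 0.11 and 0.74.

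A second group of strong Hist1 promoters lay below 0 on the authors' scale. The region of the H2B gene *Hist1h2bc*, which covers the RefSeq window of the H2A gene *Hist1h2ac*, had 994 and 938 reads and a log2 ratio of -0.22 (-0.35 to -0.089). The H3 gene *Hist1h3e* had 838 and 888 reads, a ratio of -0.052, and the H4 gene *Hist1h4c* 735 and 719 reads, a ratio of -0.17. The shared promoter of the H2B gene *Hist1h2bj* and the H2A gene *Hist1h2ag* had 556 and 547 reads, a ratio of -0.16. The same-signal differences of these 4 regions were between 0.41 and 0.58, so their direction depends on the scaling: with ratios centred on the median of all regions, 0.38 is added to each and all 4 lie above 0. The shared promoter of *Hist1h2ae* and *Hist1h2bg*, by contrast, had 398 and 561 reads and a ratio of 0.36 (0.17 to 0.55).

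Of the 5 lowest ratios, 3 were in Hist1. The H2A gene *Hist1h2an*, whose region covers the divergent H2B gene *Hist1h2bp*, had 611 and 464 reads and a log2 ratio of -0.53 (-0.71 to -0.36), with the smallest same-signal difference of the histone promoters, 0.14. The H3 gene *Hist1h3f* had 494 and 427 reads and a ratio of -0.35, and the H2B gene *Hist1h2bm* 330 and 301 reads and a ratio of -0.27. Centred by the median over all regions, *Hist1h2an* still lay below 0 and the other pair above it.

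The Hist2 cluster on chromosome 3 (chr3:96209975-96269819) gave 7 promoter regions with 2949 and 3134 reads, a pooled log2 ratio of -0.048 (-0.12 to 0.025) that becomes 0.33 when centred on the median of all regions. Their median same-signal difference was 0.49, and the 7 values ran from 0.21 to 1.13. *Hist2h3b*, an H3 gene whose region also covers the H2B gene *Hist2h2bb*, was the highest, with 478 and 739 reads and a log2 ratio of 0.49 (0.32 to 0.66). *Hist2h4*, an H4 gene, had 1 region at its start with 524 and 516 reads and a ratio of -0.16, and a second centred 936 bp downstream with 147 and 213 reads and a ratio of 0.40. The remaining 4 lay below 0 on the authors' scale.

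The region of the H2B gene *Hist2h2be*, which covers the RefSeq window of the H2A gene *Hist2h2ac*, had 669 and 581 reads and a log2 ratio of -0.34. Among the H2A genes of Hist2, *Hist2h2aa2* had 299 and 251 reads and a ratio of -0.39, *Hist2h2aa1* 490 and 499 reads and a ratio of -0.11, and *Hist2h2ab* 342 and 335 reads and a ratio of -0.17. Centring moved *Hist2h2be*, *Hist2h2aa1* and *Hist2h2ab* above 0 and left *Hist2h2aa2* just below it. The windows of *Hist2h2aa1* and *Hist2h2aa2* share 67.7% of their 50-base words, and what the mapping quality filter did to their reads was not tested.

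Outside these clusters, the Hist4 promoter of the H4 gene *Hist4h4* on chromosome 6 had 687 and 681 reads and a log2 ratio of -0.15 (-0.30 to 0.0066), with a same-signal difference of 0.50. The H2B gene *Hist3h2ba* on chromosome 11 had 17 and 39 reads and a ratio of 1.02 (0.21 to 1.98). It is the weakest histone promoter in both libraries by RPM, with 0.341 and 0.689 RPM, and its difference of 0.88 has the widest counting error among them.

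By histone type, the median same-signal difference was 1.33 for H1 (2 regions), 1.02 for H2A (9), 0.92 for H4 (13), 0.84 for H3 (10) and 0.51 for H2B (7). The ranges overlapped, and H2B values ran from 0.30 to 0.88 while those of H4 ran from 0.48 to 1.93. At least 2-fold above promoters of the same signal were 6 of 13 H4 regions, 5 of 9 H2A regions, 3 of 10 H3 regions, 1 of 2 H1 regions and 0 of 7 H2B regions. Of all promoter regions, 5.26% were. The H4 regions had a median enrichment of 14.4 in the control library, below every other type, and 27.4 in the knockout library, and 7 of the 13 regions with under 15-fold enrichment were H4. H2B promoters had 28.9 and 23.7. A region is named for its closest TSS, and 8 of the 41 cover the windows of 2 genes, most of them an H2A and an H2B gene, and those of *Hist2h2be* and *Hist1h2bc* cover the window of an H2A gene while no window was held for their own, so the types of divergent pairs are not separate measurements.

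**Figure D3:**
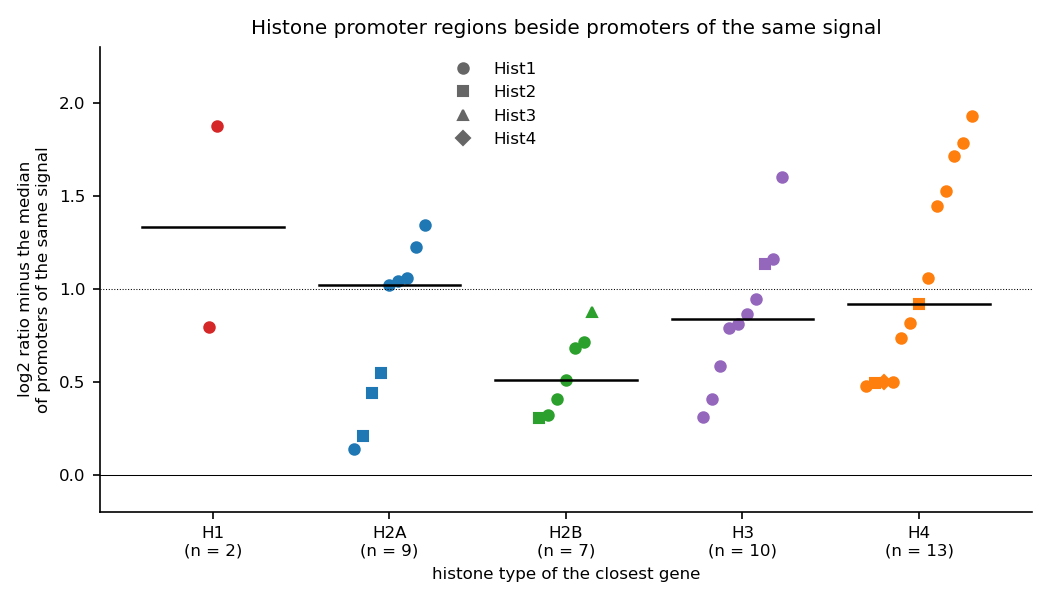
Log2 ratio of each histone promoter region minus the median of 1000 promoters of the same mean RPM, by histone type, with a symbol for the cluster and a bar for the median of the type. All 41 points lie above 0, and the medians run from 0.51 for H2B to 1.33 for H1, where only 2 regions were measured.

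The 13 histone regions outside promoters were more mixed, with log2 ratios from -0.68 to 2.75 and a median of -0.20. Set beside non-promoter regions of the same signal, 9 of 13 lay above the median. The nearest to the promoter limit were *Hist2h4* at 936 bp and *Hist1h3e* at -880 bp on the inside, the latter with 186 and 237 reads, and on the outside *Hist1h1b* at 1252 bp and *Hist2h2aa1* at -1426 bp. The outside pair had 305 and 241 reads and 125 and 92 reads, log2 ratios of -0.47 and -0.57.

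The largest same-signal difference, 2.46, was at *Hist1h1d*, a linker histone gene. Its region (chr13:23554864-23556383) had 405 reads in the control library and 1523 in the knockout library, a log2 ratio of 1.77 (1.62 to 1.94), and enrichments of 13.8 and 47.2. It is centred 2361 bp from the TSS in the deposited table but overlaps the RefSeq promoter window of *Hist1h1d* printed above, and beside promoters of its signal the difference was 2.40. By RefSeq starts it would therefore be a promoter region, with the highest ratio of them.

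The H2B symbol *Hist1h2br* was given to a region 14314 bp away that lies over a tRNA gene and had 4 and 36 reads, a log2 ratio of 2.75 (1.55 to 4.99). *Hist1h2bl*, also an H2B gene, was given to a region 5482 bp away over 2 tRNA genes, with 1057 and 727 reads and a ratio of -0.68. These are the 2 members that overlap tRNA genes, and no histone promoter region does.

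Downstream of *Hist1h4d*, an H4 gene, were regions at 3570, 4267 and 11680 bp with 106 and 101, 235 and 295, and 24 and 56 reads and log2 ratios of -0.20, 0.19 and 1.05. The one at 4267 bp overlaps the RefSeq window of *Hist1h2be*. The region 1655 bp from *Hist1h4m* had 62 and 43 reads, that at -2907 bp from *Hist1h4c* 94 and 74, and that at -2534 bp from *Hist1h1c* 171 and 136, with ratios of -0.65, -0.48 and -0.46. In Hist2, regions at -9728 and -6684 bp from *Hist2h2ab* had 25 and 42 and 14 and 51 reads and ratios of 0.59 and 1.66. All of these hold fewer than 300 reads in each library.

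The symbols do not reach every histone gene. Of the 62 RefSeq histone genes with a promoter window, 45 had a window over a region of the set, 4 over regions whose closest gene carries no histone symbol in the table, and 13 over no region. The 3 regions without a histone symbol cover *Hist3h2a* with 529 and 470 reads, *Hist1h2ah* and *Hist1h2bk* with 555 and 513, and *Hist1h2bb* with 594 and 586. Their log2 ratios were -0.31, -0.25 and -0.16 and their same-signal differences between 0.35 and 0.49. All 41 regions over a RefSeq histone window, whatever their symbol, had a pooled log2 ratio of 0.17 and a median same-signal difference of 0.81, above 0 in 41 of 41.

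The 13 genes with no region over their window included *Hist1h1a*, the testis genes *Hist1h1t*, *Hist1h2aa* and *Hist1h2ba*, *Hist1h3d* and *Hist1h2af*. The other 7 have near-identical copies. Of the 63 windows, 10 share over 50% of their 50-base words with another histone window, and 7 of these 10 had no region, against 6 of the other 53. The authors kept only reads above a mapping quality limit, and what that removes at copies was not tested. Absence from the table is thus not absence of open chromatin.

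Around Hist1, other elements were measured for comparison. Within 100 kb of the 3 blocks were 10 non-histone promoters that overlap no tRNA gene, with a median same-signal difference of -0.24 and a range from -0.87 to 0.64. Among them were *Hfe*, the iron regulator gene inside block C, with 655 and 378 reads and a log2 ratio of -0.93, and *Zfp184* beside block A, with 285 and 130 reads and a ratio of -1.26. The 10 also include a promoter region (chr13:23751289-23751488) that lies within the RefSeq gene *Hist1h2ab*, with a difference of 0.44. The 14 regions outside promoters without a tRNA gene had a median difference of -0.058. Regions over tRNA genes, of which 38 lay there beside the members, had a median difference of 0.78, above 0 in 36 of 38. Of these, 8 are promoter regions, set beside promoters of like signal with a median difference of 0.59, and the rest are set beside regions outside promoters. Around the Hist2 block, 4 promoter regions whose closest gene carries no histone symbol had a median difference of 0.82. Their values were 0.084, 0.29 at *Bola1*, 1.35, and 1.40 at *Mtmr11* with 151 and 293 reads. The region at 1.35 (chr3:96270095-96270365) overlaps the RefSeq gene *Hist2h2bb*, so it is not clear of histone genes. The values lie on both sides of the Hist2 histone median of 0.49.

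**Figure D4:**
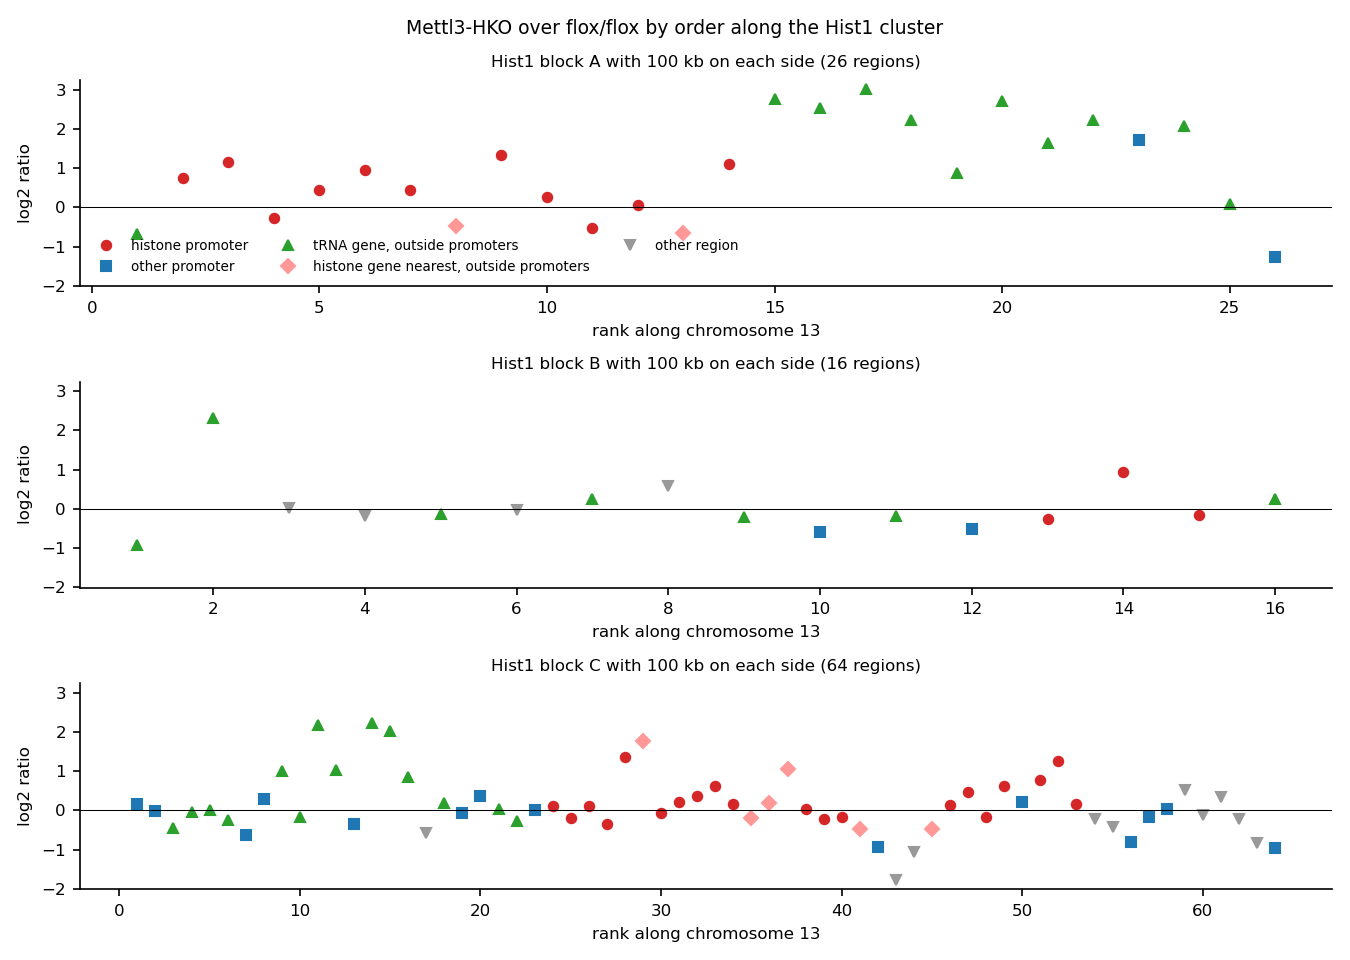
Log2 ratio of knockout over control for every region in and within 100 kb of the 3 Hist1 blocks, by rank along chromosome 13, with a symbol for the kind of region. The histone promoters (red circles) are interspersed with regions of other kinds that lie both below and above them. The *Hist1h1d* region, outside promoters in the deposited table, lies at 1.77, above every histone promoter. A run of regions over tRNA genes after the last histone gene of block A lies mostly above 1.

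The promoters of factors that act on these genes lay on both sides of those of like signal, with same-signal differences from -0.55 to 0.47. *Npat*, the coactivator of histone transcription in S phase, had 956 and 657 reads at its promoter and a log2 ratio of -0.68 (-0.82 to -0.53), with a same-signal difference of -0.045. *Slbp*, which binds the stem-loop of histone mRNAs, had 912 and 773 reads and a ratio of -0.37, and *Casp8ap2*, a component of the histone locus body, 1124 and 788 reads and -0.65. The same-signal differences of the latter pair were 0.26 and -0.021. *Lsm11*, of the U7 snRNP that cleaves histone pre-mRNAs, was the 1 gene of this list at least 2-fold lower, with 715 and 337 reads and a difference of -0.55. Over the 9 of 12 factors measured, the median log2 ratio was -0.39 and the median same-signal difference 0.26, above 0 in 5 of 9, with 0 at least 2-fold higher.

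Replication-independent histone variants, expressed outside S phase, were measured at 6 of 11 genes, with a median log2 ratio of -0.53, a median same-signal difference of 0.083 and 0 genes 2-fold changed. Histone chaperones gave -0.73 and -0.10 over 8 of 10 genes, and *Npm1* was at least 2-fold lower with 2045 and 985 reads. Of 21 replication genes, 19 had a promoter region, with medians of -0.48 and 0.16. None was at least 2-fold higher, and 5 were at least 2-fold lower. These were *Mcm4*, a subunit of the replicative helicase, with 1790 and 743 reads, *Gins1* with 1186 and 513, the cyclin genes *Ccna2* with 1578 and 740 and *Ccne1* with 1419 and 768, and *Rrm2*, a subunit of ribonucleotide reductase, with 441 and 238. *Top2a*, a topoisomerase of dividing cells, went the other way with 120 and 185 reads, a log2 ratio of 0.48 (0.15 to 0.83) and a same-signal difference of 0.98. Beside them, 4.07% of all promoters were at least 2-fold higher and 16.3% lower.

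**Figure D5:**
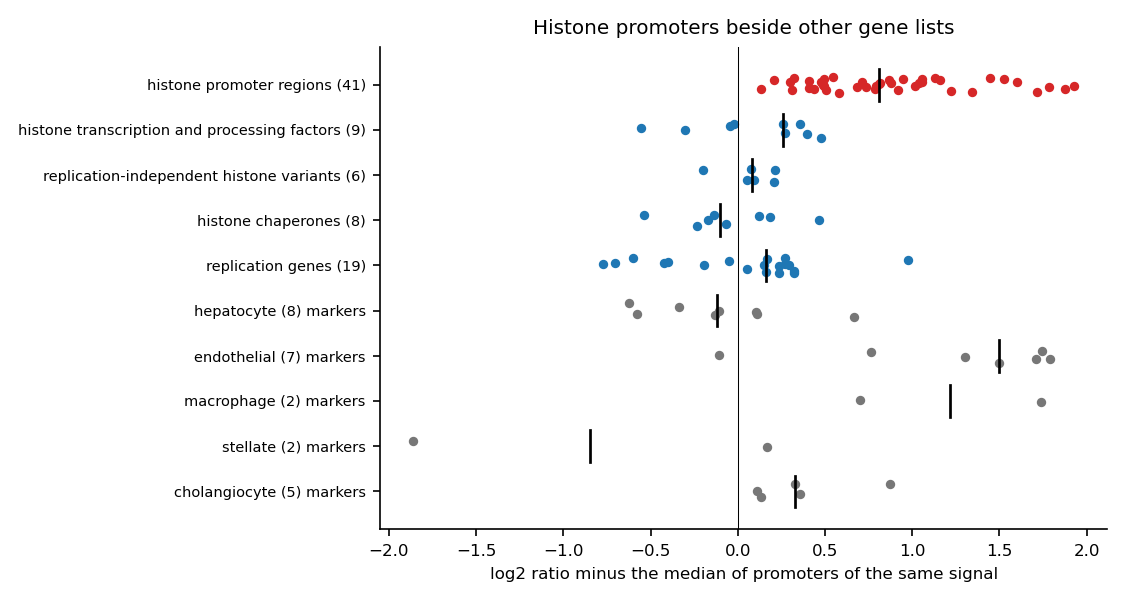
Log2 ratio minus the median of promoters of the same signal for the 41 histone promoter regions and for the strongest promoter region of each gene in the other lists, with a bar for the median and points jittered vertically. The histone promoters lie between 0.14 and 1.93, with a median of 0.81, and the 4 lists of related genes have medians from -0.10 to 0.26.

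Markers of liver cell types differed between the libraries as well. Of the endothelial markers, 7 of 8 had a promoter region, and their summed signal was 3.03 RPM in the control library and 7.01 RPM in the knockout library. At least 2-fold higher were 5 of them, *Kdr* with 25 and 89 reads, *Cdh5* with 19 and 58, *Lyve1* with 14 and 55, *Stab2* with 13 and 52 and *Tek* with 11 and 39. Their median same-signal difference was 1.5, above 0 in 6 of 7. The hepatocyte markers, all 8 measured, summed to 106.8 and 60.6 RPM with a median log2 ratio of -0.77, of which *Pck1* and *Ttr* were at least 2-fold lower. Beside promoters of the same signal their median difference was -0.12, above 0 in 3 of 8, which is near that of all promoters. Macrophage markers were listed at 2 of 8 genes with sums of 1.04 and 1.96 RPM, of which *C1qa* was at least 2-fold higher with 8 and 40 reads, and lymphocyte markers at 0 of 8. Cholangiocyte markers were listed at 5 of 8 with sums of 19.3 and 15.5 RPM, but their same-signal differences were above 0 in 5 of 5 with a median of 0.33, and *Spp1* was at least 2-fold higher with 13 and 34 reads. Of the stellate markers 2 of 8 were listed and went different ways, *Reln* with 690 and 132 reads and *Col1a1* with 37 and 43. Over all promoters, 4.07% rose and 16.3% fell by 2-fold or more, and 50.5% lay above the median of promoters of like signal. The 5 endothelial promoters named rest on 11 to 25 control reads. Rises of 2-fold were more frequent at weak promoters, at 576 of the 4335 non-histone promoters under 15-fold enrichment in the control library. In a bulk library a change in the share of a cell type and a change in signal per cell cannot be told apart. The part of cell composition in the histone values was not tested.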

How the data were processed

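Liver ATAC-seq of 1 *Mettl3* flox/flox and 1 *Mettl3*-HKO library, each pooled from 4 mice, was analysed. Reads were aligned to GRCm38 with BWA, filtered on mapping quality, and peaks were called with MACS2 with duplicates kept, as the methods and the submitters' processing notes state. How reads were counted on merged regions is not given in the sources used here. The authors deposited for each region its raw count, its RPM (the count plus 1, scaled by the library total) and a fold enrichment, which is read density in a region as a ratio to that of the genome. A deposited column with the authors' own log2 comparison was not used.

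The table has 74821 rows, of which 5272 list a region again and were dropped, and starts were converted to count from 1. Log2 ratios were computed from counts with 1 read added and the totals recovered from RPM. The interval of a ratio comes from the Clopper-Pearson interval of the share of counts. Reads are not independent molecules, and the median region had 85 and 81 counts, so a typical single region is imprecise. Of all promoter regions, 19.4% had no gene symbol. RefSeq promoter windows and tRNA gene positions on the same build were matched by symbol, synonym or overlap, and all 42 member symbols were found in RefSeq.

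The members and gene lists were chosen with earlier results of these data known. Named genes are all Hist2, Hist3 and Hist4 promoter regions, in Hist1 the 10 strongest by mean RPM, over all clusters the 5 highest and 5 lowest promoter ratios, all regions outside promoters, and from the other lists each gene 2-fold changed with *Npat*, *Slbp* and *Casp8ap2*. Other genes named were chosen after their values were seen, and so were the limits of 15 and 30 for fold enrichment, the blocks and the neighbours. Alternatives for scaling, added reads, promoter window, signal, peak call, region per gene, number of neighbours and fold were tried, with 2 added after seeing the data. The scripts were tested on simulated counts. The software was Python 3.11.15 with pandas 2.3.3, numpy 2.4.6, matplotlib 3.10.9 and scipy 1.17.1.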

Additional observations from a re-analysis of the deposited data

Results flagged for a closer look

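After the *Hist1h2br* region, the last histone region of block A, the next 100 kb of chromosome 13 held 11 regions (chr13:21855111-21945388) that belong to no histone gene. The log2 ratio of knockout over control had a median of 2.09 there, with a range from -1.26 to 3.01. They stood out as signal outside the histone regions. Of the 11, 10 lie over a tRNA gene, 8 were at least 2-fold higher in the knockout library, and 6 had a peak only there. Over all regions outside promoters these shares were 15.6% and 24.9%, and over all regions 13.2% and 21.5%. Their counts ran from 11 to 498 in the control library and from 46 to 582 in the knockout library. The exception with the lowest ratio is the promoter of *Zfp184*, which overlaps no tRNA gene.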

How the results depend on the processing

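Of 67 values computed under alternatives, 47 stayed within the 95% counting interval of the reported value or, for counts, within 1.5 times of it, 19 moved further and 1 reversed. For the median log2 ratio and the median same-signal difference, the interval of the pooled log2 ratio of all histone promoters was placed around the median. It does not measure the error of a median, so these labels are rough. Some of the 47 could not move, such as the same-signal difference under centring. With ratios centred on the median of all regions, the pooled log2 ratio was 0.53 for Hist1 and 0.33 for Hist2, the median of all histone promoters 0.53, and 12 instead of 6 were at least 2-fold higher. Scaled to the reads in regions, these values were 0.67, 0.46, 0.67 and 13. In the upper 50% of mean RPM (22 regions) the median reversed to -0.012, the Hist1 value was 0.055, the same-signal difference 0.63 and the count 1. With a peak in both libraries (34 regions) the Hist1 value was 0.11, the median 0.11, the difference 0.72 and the count 2. Both settings leave out regions that were weak in the control library. Within 500 bp of the TSS the median was 0.21. At 1.5-fold 12 regions were higher and at 3-fold 0. Over RefSeq windows the Hist1 value was 0.23. That set adds *Hist1h1d*, a second *Hist1h2be* region and regions without a histone symbol. It also drops promoter regions over no window, such as that of *Hist1h3f*. The count of regions at least 2-fold lower was 0 in each of these settings, and the same-signal difference was above 0 in every region counted except under the 2000 bp window, where it was in 42 of 44. Leaving out regions with near-identical copies, chosen after seeing the data like the RefSeq windows, gave a difference of 0.80.

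No paired analysis was possible because each group has 1 library. Leaving out a library was not run for the same reason. Depth limits the weakest promoters: *Hist3h2ba* rests on 17 control reads.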
